A study of Mus musculus with 9 samples.

Results

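The 8 genes described here, of 54232 Ensembl genes counted in each library, stand lower in the cochlear duct of Prdm16 null mouse embryos than in that of wild type (WT) littermates. They are 1500015O10Rik, Upp1, Pla2r1, Snap91, Rgcc, Car2, Tac1 and Gpr37. They were chosen by their CPM values in these same libraries, lower in null than in WT, so the difference between null and WT is a description here and carries no test. All 8 passed the filter on low counts in each comparison. The rule did not compare the heterozygote libraries, but the genes were chosen with earlier results of these data known.

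The libraries came from 9 embryos at embryonic day 14.5, 3 WT, 3 carrying a single copy of the Prdm16 cGT allele (Het) and 3 carrying it on both chromosomes (Null), each library holding RNA of the microdissected cochlear ducts of both inner ears of 1 embryo. The cGT allele is a gene trap inherited through the germ line and thus present in every cell of the embryo, not in the duct alone, and the mice were kept on an FVB/NJ background. The labels say that 3 littermates per genotype were used, so p-values measure the spread among these embryos. Total counts ran from 24095322 to 30819118 per library, and 3 counts in a library, taken as the floor, came to between 0.0969 and 0.126 CPM (counts scaled to a common library size with TMM factors), which covers counting error only. Prdm16 itself was at 184 to 225 CPM in WT, 123 to 151 CPM in Het and 19.1 to 27.4 CPM in Null libraries, in the order of the labels.

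The cochlear duct is the epithelial tube of the inner ear whose floor is divided, from its inner to its outer side, into Kölliker's organ, the prosensory domain that will form the organ of Corti, and the outer sulcus. Kölliker's organ is a transient epithelium that secretes much of the tectorial membrane, and Prdm16, a zinc finger transcriptional regulator with a PR domain, marks it. The 8 genes encode proteins of unlike kinds. 1500015O10Rik, which RefSeq lists under the name Ecrg4, encodes the precursor of the secreted peptide augurin, and Tac1 the precursor of substance P and neurokinin A. Pla2r1 encodes a receptor of the mannose receptor family that binds secreted phospholipases A2, and Gpr37 an orphan G protein-coupled receptor related to the endothelin receptors. Snap91 encodes AP180, which assembles clathrin coats, and Upp1 and Car2 encode the enzymes uridine phosphorylase and cytosolic carbonic anhydrase. Rgcc encodes a regulator of the cell cycle that binds the kinase CDK1.

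All 12 markers of the duct epithelium that were examined, among them Epcam, Sox2, Gata3 and Oc90, passed the filter and had mean levels of at least 1 CPM. Other tissue was present in unequal amounts. The summed level of 20 mesenchyme genes was 895, 1470 and 210 CPM in WT embryos 1, 2 and 3, between 132 and 196 CPM in the Het embryos, and 141, 96.1 and 1870 CPM in Null embryos 1, 2 and 3. WT 1, WT 2 and Null 3 thus stand apart, and they were also the 3 highest libraries for 8 endothelial genes, at 59.9 to 96.9 CPM against 4.44 to 8.55 CPM in the other 6. The 5 melanocyte genes examined (Dct, Pmel, Tyr, Tyrp1 and Mlana) summed to 55.2 to 132 CPM in WT, 20.6 to 40.4 CPM in Het and 12.2 to 43 CPM in Null, so that WT stood above both other genotypes with no overlap, and 10 red blood cell genes summed to 88.7 to 247 CPM in WT, 37.9 to 59.4 CPM in Het and 59.3 to 126 CPM in Null. The 12 neuronal genes summed to 264 to 303 CPM in WT, 251 to 280 CPM in Het and 224 to 292 CPM in Null, most of it from Isl1 (247 ± 19.1, 248 ± 13.6 and 237 ± 54.1 CPM), which the otic epithelium also expresses. Stmn2, a gene of growing axons on the same list, was the one neuronal gene called lower in Null, at 8.59 ± 0.492 CPM in WT, 3.21 ± 0.118 CPM in Het and 1.1 ± 0.386 CPM in Null (log2 fold change -2.96, SE 0.286, edgeR adjusted p = 0.00343), and its part in the results was not tested. The 7 glial genes summed to 1410 to 1700 CPM in all 9 libraries, nearly all of it from Sox10 and Erbb3, which the otic epithelium also expresses, and 9 genes of macrophages and osteoclasts at 3.11 to 24.6 CPM. The comparisons of the 8 genes are therefore given below also without WT 1, WT 2 and Null 3. This leaves WT 3 as the only WT embryo, so a call lost there cannot be told apart from the loss of libraries. In bulk samples such as these, fewer cells of a type and less RNA per cell cannot be told apart.

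The RefSeq promoter windows are shown for the 3 genes with the steepest difference and for Snap91. The Het level of Snap91 was called apart from the midpoint of WT and Null with all libraries, though not in every other fit. Each line gives the 250 bases before the annotated start, 5′ to 3′ on the strand of the gene, in build GRCm38.p6, and capitals mark the GC box GGGCGG in either orientation, the only one of the motifs searched that was found in these 4 windows. The windows lie at chr1:43730352-43730601 (plus strand) for 1500015O10Rik, chr11:9117758-9118007 (plus strand, the first of 3 start sites) for Upp1, chr2:60553309-60553558 (minus strand) for Pla2r1 and chr9:86880709-86880958 (minus strand) for Snap91.
1500015O10Rik: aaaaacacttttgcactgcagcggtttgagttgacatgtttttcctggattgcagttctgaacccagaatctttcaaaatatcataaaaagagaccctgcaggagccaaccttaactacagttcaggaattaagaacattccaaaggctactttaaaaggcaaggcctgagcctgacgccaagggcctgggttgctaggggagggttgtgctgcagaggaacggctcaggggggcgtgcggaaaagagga
Upp1: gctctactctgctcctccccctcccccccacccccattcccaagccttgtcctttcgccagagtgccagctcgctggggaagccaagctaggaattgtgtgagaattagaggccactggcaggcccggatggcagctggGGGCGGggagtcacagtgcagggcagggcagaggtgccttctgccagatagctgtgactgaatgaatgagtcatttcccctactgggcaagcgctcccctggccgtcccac
Pla2r1: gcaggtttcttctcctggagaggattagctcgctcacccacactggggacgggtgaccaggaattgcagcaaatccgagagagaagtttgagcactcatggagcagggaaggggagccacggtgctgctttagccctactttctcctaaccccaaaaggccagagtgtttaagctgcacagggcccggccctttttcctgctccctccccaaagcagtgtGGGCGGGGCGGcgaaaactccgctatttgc
Snap91: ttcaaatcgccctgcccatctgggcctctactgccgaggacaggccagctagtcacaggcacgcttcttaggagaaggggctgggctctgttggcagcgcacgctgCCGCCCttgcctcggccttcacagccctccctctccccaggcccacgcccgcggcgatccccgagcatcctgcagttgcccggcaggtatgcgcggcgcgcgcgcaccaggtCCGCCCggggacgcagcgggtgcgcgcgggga

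Promoter windows were found for 7 of the 8 genes. The GC box, the letters bound by the Sp1 family, was present in 6 of these 7, the exception being 1500015O10Rik, and in 32.7% of all 32851 RefSeq windows of the same length. GC content was 71.2% for Snap91, 66.8% for Rgcc, 62.4% for the first Upp1 window, 60.8% for Gpr37, 57.6% for Pla2r1, 51.2% for Tac1 and 48.4% for 1500015O10Rik, and the other Upp1 windows were at 55.6% and 52.8%, against a median of 52.4% over all windows. TATAAA was in none of the 7 (12.4% of all windows), and CCAAT (33.8%), the E-box CACGTG (6.02%) and AGATAA (9.99%), letters bound by GATA factors, were each found in Tac1 alone. GAAGATGAG, letters bound by the second zinc finger domain of EVI1, a protein related to PRDM16, was in 0 of the 7 and in 0.347% of all windows. Each motif was searched on both strands and none of the matches overlapped a different motif. A match is a description of letters, not of a binding site.

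In WT ducts the 8 genes differed widely in level. Per kilobase of exon, 1500015O10Rik was highest at 139 CPM, followed by Rgcc at 61.9, Car2 at 37.6, Tac1 at 14.5, Upp1 at 10.6, Snap91 at 5.67, Pla2r1 at 5.53 and Gpr37 at 1.03. Snap91 and Pla2r1 are neighbours whose levels did not differ beyond their spread, since the coefficient of variation over the 3 WT embryos was 5.28% for Snap91 and 12.4% for Pla2r1. In Null ducts Rgcc was highest at 25.6 CPM per kilobase, above 1500015O10Rik at 20.3, and Upp1 had moved from the fifth to the seventh place at 0.644.

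The secreted products come first. 1500015O10Rik (chr1:43730602-43742578, plus strand) was at 133, 128 and 116 CPM in WT embryos 1 to 3, 117, 70.4 and 83.1 CPM in Het embryos and 19.5, 16.4 and 19 CPM in Null embryos. One Het embryo lay within the WT range and the other two lay between the genotypes, while all Null embryos lay far below. Null embryos kept 14.6% of the WT mean, a log2 fold change of -2.78 (SE 0.1). Tac1 (chr6:7554879-7565834, plus strand) was at 48.4, 46.7 and 52.8 CPM in WT, 44.1, 42.8 and 47.3 CPM in Het and 21.4, 23.9 and 16.1 CPM in Null. The Het range of this neuropeptide gene overlapped that of WT, and the Null embryos were at 41.5% of WT (log2 fold change -1.27, SE 0.152).

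Of the receptors, Pla2r1 (chr2:60417543-60553308, minus strand) showed 3 separate levels, at 58.8, 54.9 and 45.9 CPM in WT, 31.7, 31.3 and 32.4 CPM in Het and 13.3, 10.4 and 12.1 CPM in Null. Its Het embryos were the most alike of any genotype for any of the 8 genes, with a coefficient of variation of 1.66%, and Null embryos were at 22.4% of WT (log2 fold change -2.16, SE 0.14). Gm13583, an antisense gene, overlaps its exons over 299 bases and held 36 counts over all 9 libraries, and the strand setting of the counting is not given in the sources used here. Gpr37 (chr6:25665878-25690729, minus strand) had the lowest CPM of the 8 genes in WT and Het, though not in Null. It was at 6.11, 6.04 and 6.58 CPM in WT, 4.3, 3.21 and 4.35 CPM in Het and 2.19, 1.87 and 3.48 CPM in Null. These rest on 154 to 194 counts per WT library and 53 to 83 per Null library, and the highest Null embryo lay above the lowest Het embryo. Gpr37 stood at 40.2% of WT in Null (log2 fold change -1.32, SE 0.26).

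Snap91, the clathrin adaptor (chr9:86765923-86880654, minus strand), was at 54.7, 51.2 and 49.3 CPM in WT, 48.3, 43.9 and 50.9 CPM in Het and 18, 17.1 and 16.2 CPM in Null. It had the narrowest Null spread, with a coefficient of variation of 5.33%, and its Het embryos reached into the WT range. Null embryos were at 33% of WT (log2 fold change -1.60, SE 0.0945).

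Of the enzymes, Upp1 (chr11:9118103-9136170, plus strand) differed most, at 25.6, 21.2 and 15.4 CPM in WT, 15.2, 7.39 and 11.6 CPM in Het and 1.03, 1.16 and 1.59 CPM in Null. The Null libraries held 25 to 38 counts of this gene, well above the floor of 3, and stood at 6.09% of WT, which is 16.4-fold lower (log2 fold change -4.04, SE 0.26). It was also the most variable in WT and Het, with coefficients of variation of 24.6% and 34.4%. Car2 (chr3:14886273-14900770, plus strand) was at 97.9, 101 and 74 CPM in WT, 61.6, 60.1 and 67.4 CPM in Het and 34.9, 38.5 and 27.7 CPM in Null. The 3 genotypes did not overlap for Car2, and Null embryos were at 37% of WT (log2 fold change -1.44, SE 0.16).

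Rgcc, the cell cycle regulator (chr14:79288756-79301645, minus strand), was at 63.8, 55.5 and 51.1 CPM in WT, 44.8, 42.7 and 43.3 CPM in Het and 23.3, 21.1 and 26 CPM in Null. Its 3 genotypes were separate as well, and Null embryos were at 41.3% of WT (log2 fold change -1.28, SE 0.119). All 8 genes had Null values below every WT value, as did 8.95% of the 17168 genes tested, and 7 of the 8, all but Gpr37, were among the 135 genes called lower (0.786% of those tested, at an edgeR adjusted p under 0.05 and a log2 fold change beyond 0.5 in size). Since this contrast chose the genes, nothing is read from those counts. The count of 135 itself went to 41 without WT 1, 37 without WT 2, 79 without WT 3, 75 without Null 1, 86 without Null 2, 232 without Null 3 and 285 under DESeq2. The median log2 fold change was -1.52 over the 8 genes and 0.010 over all genes tested. Without WT 1, WT 2 and Null 3 together, the log2 fold changes of the 8 genes were -3.80 for Upp1, -2.68 for 1500015O10Rik, -1.95 for Pla2r1, -1.69 for Gpr37, -1.48 for Snap91, -1.21 for Tac1, -1.20 for Rgcc and -1.01 for Car2. All but that of Gpr37 were smaller in size than with all libraries.

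**Figure D1:**
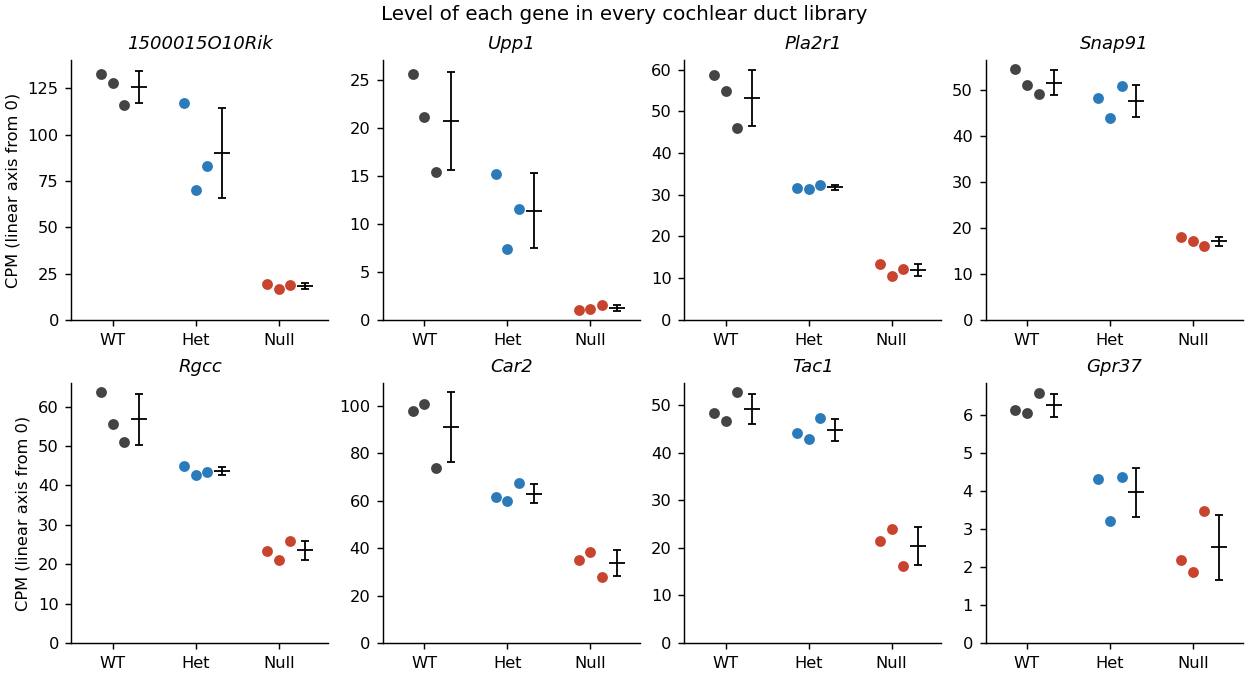
Level of each of the 8 genes in every library in CPM on a linear axis from 0, by genotype, with points for single embryos (replicates 1 to 3 from left to right) and, beside them, the mean with SD as error bar (n = 3). Null embryos lie below every WT embryo in each panel. Pla2r1, Rgcc and Car2 show Het embryos apart from both other genotypes, whereas Snap91 and Tac1 show Het embryos close to WT. For Upp1 the highest Het embryo (15.2 CPM) nearly reaches the lowest WT embryo (15.4 CPM).

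The heterozygotes ask whether a single functional copy of Prdm16 leaves these genes at the WT level. Among the 8 genes, Pla2r1 alone fell in Het against WT by the test, with 59.8% of the WT mean (log2 fold change -0.74, SE 0.0905, edgeR adjusted p = 0.0194), where 0.0984% of 17269 genes were called lower. That share rests on 17 genes, which became 458 without WT 3, 18 without WT 1, 6 without Het 1, 1 without WT 2, 0 without Het 2 or Het 3, and 270 under DESeq2. Car2 at 69.3% of WT (-0.53, SE 0.105, edgeR adjusted p = 0.0704), Rgcc at 76.8% (-0.38, SE 0.0808, adjusted p = 0.0766), Gpr37 at 63.3% (-0.66, SE 0.164, adjusted p = 0.111) and Upp1 at 54.9% (-0.87, SE 0.247, adjusted p = 0.156) did not pass, although none of their Het embryos overlapped WT. In all, 5 of the 8 genes, Pla2r1 included, were non-overlapping in this way, against 8.99% of all genes tested. 1500015O10Rik at 72% of WT (-0.48, SE 0.149, adjusted p = 0.197), Snap91 at 92.1% (-0.12, SE 0.0715, adjusted p = 0.536) and Tac1 at 90.7% (-0.14, SE 0.0692, adjusted p = 0.428) overlapped WT. At an unadjusted p under 0.05, 6 of the 8 genes and 13.1% of all genes differed.

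All 8 values were below 0, as were 50% of all genes, and the median was -0.50 over the 8 genes and 0.000 over all. The same WT libraries served to choose the genes, so the WT side of this comparison is not independent of the rule. Most of the values also rested on WT 1 and WT 2. With these libraries and Null 3 left out, none of the 8 genes passed, and the log2 fold changes were -0.53 for Pla2r1 (adjusted p = 0.729), -0.44 for Upp1, -0.36 for 1500015O10Rik, -0.23 for Car2, -0.23 for Rgcc and -0.05 for Snap91, while Tac1 was at -0.24 and Gpr37 at -0.74, both further from 0 than with all libraries, the single remaining WT embryo being assumed to vary like the others. The Pla2r1 call was kept without WT 1 and without WT 3, but not without any of the other 4 embryos, and its log2 fold change stayed between -0.84 and -0.53 over 12 alternatives with adjusted p from 6.14e-16 to 0.729. Whether the other tissue in WT 1 and WT 2 has a part in these Het values was not tested.

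Between Null and Het, whose sums of melanocyte genes overlapped, 7 of the 8 genes fell, and 0.322% of 17067 genes were called lower. The 55 genes of that share became 7 without Het 1, 21 without Het 2, 6 without Het 3, 101 without Null 3 and 43 without either other Null embryo. Under DESeq2 they became 161. The red blood cell sums were mostly lower in Het, at 44.3, 37.9 and 59.4 CPM against 126, 59.3 and 117 CPM in Null. The log2 fold changes were -3.17 for Upp1 (SE 0.314, edgeR adjusted p = 0.00695), -2.30 for 1500015O10Rik (SE 0.186, adjusted p = 0.00296), -1.48 for Snap91 (SE 0.0987, adjusted p = 0.00117), -1.42 for Pla2r1 (SE 0.122, adjusted p = 0.00356) and -1.13 for Tac1 (SE 0.143, adjusted p = 0.0183). Car2 (-0.91, SE 0.124, adjusted p = 0.0242) and Rgcc (-0.89, SE 0.104, adjusted p = 0.0118) changed least among the 7. Gpr37 did not pass, at -0.66 (SE 0.284, edgeR adjusted p = 0.438), and it was the one gene whose Null and Het embryos overlapped, the other 7 being separate as were 9.09% of all genes. The count of 7 went to 4 without Het 1 or Het 2 and to 3 without Het 3. The Null libraries helped to choose the genes, which makes this test partly dependent on the rule. Without WT 1, WT 2 and Null 3 the same 7 genes were called, with log2 fold changes from -3.36 for Upp1 to -0.78 for Car2. 1500015O10Rik, Pla2r1 and Snap91 were called in each of the 6 fits that left out 1 embryo, Upp1 in 5, Rgcc in 3, and Car2 and Tac1 in 2.

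The place of the Het level between Null and WT was then examined. Its ends are the means of WT and Null, the groups by which the genes were chosen, so it is not independent of the rule. Setting the Null mean to 0% and the WT mean to 100% on the linear CPM scale, Het embryos stood at 88.3% ± 10.2 for Snap91 and 84.1% ± 7.92 for Tac1 (SD, n = 3 embryos). The middle of the range held 1500015O10Rik at 67.2% ± 22.5, Rgcc at 60.4% ± 3.27, Upp1 at 52% ± 20.1, Car2 at 51.3% ± 6.67 and Pla2r1 at 48.2% ± 1.28, and Gpr37 was at 38.6% ± 17.3. The lowest of the 3 embryos was at 77.3% for Snap91 and 77.6% for Tac1, above the highest embryo of Pla2r1 (49.5%), Car2 (58.8%), Rgcc (64%) and Gpr37 (49.3%). With WT 3 alone as WT and Null 1 and Null 2 as Null, the order was different, with Snap91 at 94.9% ± 11.1, 1500015O10Rik at 74% ± 24.7, Rgcc at 74% ± 3.77, Tac1 at 73.2% ± 7.57, Upp1 at 71.8% ± 27.3, Car2 at 70.6% ± 10.2, Pla2r1 at 58.6% ± 1.55 and Gpr37 at 42.2% ± 14.2. Tac1 then overlapped Car2 and Rgcc. The lowest Het embryo of Snap91 (82.9%) lay above the highest of Tac1 (81.6%), Car2 (82.2%) and Rgcc (78.2%), but below that of Upp1 (98.5%), from which Snap91 was separate with all libraries (71.7% for the highest Upp1 embryo), and of 1500015O10Rik (102%). The SD covers the Het embryos only and not the spread of the WT and Null means. With all libraries, neighbours in the order, such as Snap91 and Tac1 or Upp1, Car2 and Pla2r1, did not differ beyond their SD. Prdm16 itself was at 64.3% ± 8.09. Over the 135 genes called lower in Null, with all libraries, the median was 60.4% with quartiles of 46.5% and 78.8%, so that Snap91 and Tac1 lay above the upper quartile and Gpr37 below the lower one.

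**Figure D2:**
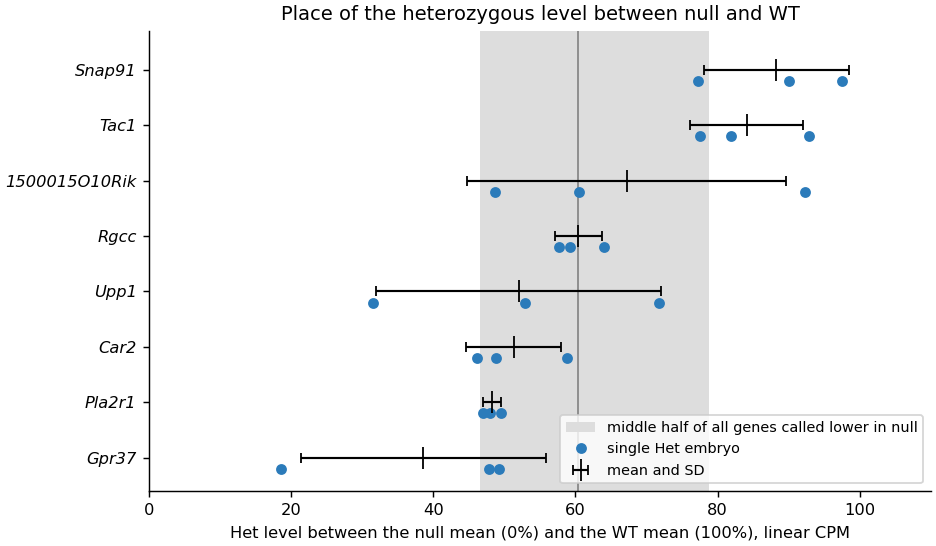
Place of the Het level of each gene between the Null mean (0%) and the WT mean (100%) in linear CPM, with points for the 3 Het embryos and a mark with SD for their mean. The grey band spans the quartiles (46.5% to 78.8%) and the line the median (60.4%) of all 135 genes called lower in Null, and Snap91 at 88.3% and Tac1 at 84.1% have means to the right of the band.

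On the log2 scale, the difference between Het and the mean of WT and Null was tested with all 9 libraries. In this balanced design it is uncorrelated with the difference between Null and WT only where WT and Null vary alike. The coefficients of variation in WT and Null were 5.28% and 5.33% for Snap91, but 4.7% and 33.8% for Gpr37. Snap91 in Het was 0.68 above the midpoint of WT and Null (SE 0.072, edgeR adjusted p = 0.0228) and was the one gene of the 8 to pass. Of 17797 genes tested 2 passed, Snap91 and Prdm16 (1.01, SE 0.108, adjusted p = 0.0228), which is 0.0112%. No gene passed without WT 1, WT 2, WT 3, Het 1, Het 3 or Null 1, while 3 genes above and 1 below the midpoint passed without Het 2, and 27 above and 15 below under DESeq2. Equal steps on the linear scale would themselves put the Het value of Snap91 0.21 above the log2 midpoint. The value for Upp1 was 1.15 (SE 0.234, adjusted p = 0.47), close to the 1.10 that equal linear steps give, and that of 1500015O10Rik was 0.91 (SE 0.134, adjusted p = 0.149) against 0.58. Tac1 was at 0.49 (SE 0.11, adjusted p = 0.544) against 0.13, Pla2r1 at 0.34 (SE 0.0987, adjusted p = 0.693) against 0.37, and Rgcc at 0.26, Car2 at 0.19 and Gpr37 at -0.00 completed the order. At an unadjusted p under 0.05, 6 of the 8 genes and 6.94% of all genes departed from the midpoint. The Snap91 value varied little, from 0.63 to 0.74 over 14 alternatives, while its adjusted p ran from 2.98e-11 to 0.311. When single embryos were left out it passed in 3 of 9 fits (without Het 2, Null 2 or Null 3), and with WT 1, WT 2 and Null 3 left out it was 0.69 (adjusted p = 0.0866).

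Embryos of one genotype varied in these genes to different degrees and not always together. After the genotype mean was taken away from the log2 CPM, the median Pearson correlation over the 28 pairs of the 8 genes was 0.381 across the 9 libraries, which share 3 group means and hence fewer free values. It was 0.192 without Het 2 and 0.256 without WT 1, so this value rests in part on single embryos. For comparison, the median correlation of each of the 8 genes with 17788 other genes lay between -0.00615 and 0.0217 and the median absolute correlation between 0.263 and 0.429. Of the 28 pairs, 20 were positive, with 1500015O10Rik and Upp1 at 0.781 and Pla2r1 and Rgcc at 0.749. The other 8 were negative, 5 of them with Tac1, which ran against Rgcc (-0.731) and Gpr37 (-0.693) and with Car2 (0.495). The deviations of Prdm16 itself correlated with those of Rgcc at 0.899, Gpr37 at 0.787, Upp1 at 0.758, 1500015O10Rik at 0.695 and Pla2r1 at 0.679. Snap91 was at 0.299, Car2 at -0.243 and Tac1 at -0.697, where the median absolute correlation of Prdm16 with 17788 other genes was 0.403. These are descriptions of 9 libraries and no test was made.

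The same deviations can be read library by library. Het 2 was below the Het mean for all 8 genes, with a deviation of -0.56 for Upp1, -0.32 for 1500015O10Rik and -0.28 for Gpr37, and it had the lowest Prdm16 of the Het embryos, at 123 CPM. WT 1 was above the WT mean for 6 of the 8 and had the highest Prdm16 of all, at 225 CPM, and WT 3 was above the mean for 2 of the 8, Tac1 and Gpr37. Null 3, the Null library rich in mesenchyme genes, deviated by 0.51 for Gpr37 and 0.34 for Upp1, but by -0.33 for Tac1 and -0.27 for Car2. Null 3 was also the one Null library in which the Y-linked genes Kdm5d, Eif2s3y, Ddx3y and Uty were each below 1 CPM, as in WT 2, WT 3, Het 2 and Het 3. The part of the embryos' sex or of other tissue in these deviations was not tested.

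**Figure D3:**
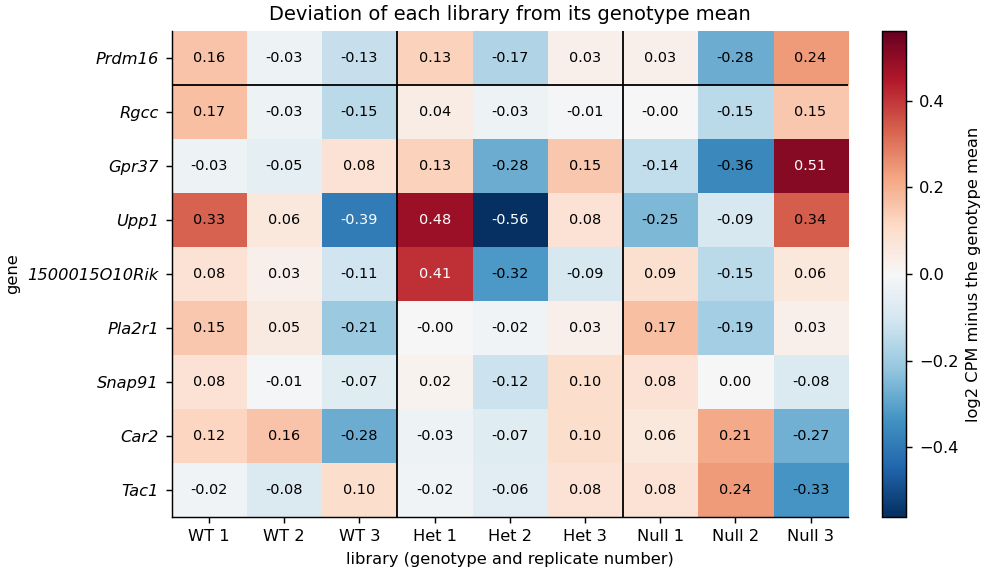
Deviation of the log2 CPM of each gene from the mean of its genotype, by gene (rows, Prdm16 above the line) and library (columns), with red for higher and blue for lower values and the value printed in each cell. Het 2 is at or below -0.02 for every one of the 8 genes, and Null 3 is high for Gpr37 (0.51) and low for Tac1 (-0.33).

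Relatives and pathway partners of the 8 genes were called about as often as all genes. Lists were drawn up for 7 of the genes, 1500015O10Rik being left out, and held 63 other genes that could be tested between Null and WT, of which 1 was called lower and 0 higher by edgeR, against 1.71% of all genes called in either direction. At an unadjusted p under 0.05 there were 10, where 12.2% of all genes did. The called gene was Ly75, an endocytic receptor of the same mannose receptor family as Pla2r1, which fell from 36.9 ± 2.94 to 23.3 ± 2.3 CPM (log2 fold change -0.67, SE 0.113, edgeR adjusted p = 0.0308). In 5 of the 6 fits that left out 1 embryo, 0 of the 63 were called, and without Null 3 alone 3 were.

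Among the ligands of the Pla2r1 list, the secreted phospholipase gene Pla2g5 was at 16.3 CPM in WT and 25.6 CPM in Null (0.65, SE 0.126, edgeR adjusted p = 0.0516). None of the 13 other genes of pyrimidine salvage, breakdown and synthesis tested beside Upp1 was called. The most abundant, Cad, which starts pyrimidine synthesis, was at 161 CPM in WT and 140 CPM in Null (-0.21, SE 0.108, edgeR adjusted p = 0.502). Upp2, the paralog of Upp1, was at 5.25 and 6.2 CPM. Beside Snap91, none of 19 genes of clathrin coats and synaptic vesicles was called. Its closest relative Picalm, which is used in most cell types, was at 206 CPM in WT and 219 CPM in Null, and the clathrin heavy chain Cltc, the most abundant of the list, at 655 and 635 CPM (-0.05, SE 0.0983, adjusted p = 0.876).

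Beside Car2, 11 other carbonic anhydrases were tested and none was called. Car13, a second cytosolic form and the highest of the list in WT, was at 103 CPM in WT and 104 CPM in Null (0.02, SE 0.11, edgeR adjusted p = 0.967). Car3, at 14.5 CPM in WT and 1.15 CPM in Null (-3.69, SE 1.39, adjusted p = 0.327), is also on the mesenchyme list. Tacr1 and Tacr3, receptors for the Tac1 peptides, were at 1.44 and 7.64 CPM in WT and 1.18 and 6.2 CPM in Null, and Mme, a protease that degrades substance P, was at 259 and 275 CPM (0.08, SE 0.153, adjusted p = 0.868). Psap, whose product prosaposin has been proposed as a ligand of Gpr37, was at 769 and 748 CPM (-0.05, SE 0.102, adjusted p = 0.891), and the related endothelin receptor Ednrb at 19.4 and 16.1 CPM. Of the kinases and cyclins tied to Rgcc, Akt1 was the most abundant at 308 and 335 CPM (0.12, SE 0.0746, adjusted p = 0.589), and Cdk1 was at 64.2 and 51.5 CPM (-0.32, SE 0.147, adjusted p = 0.437).

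**Figure D4:**
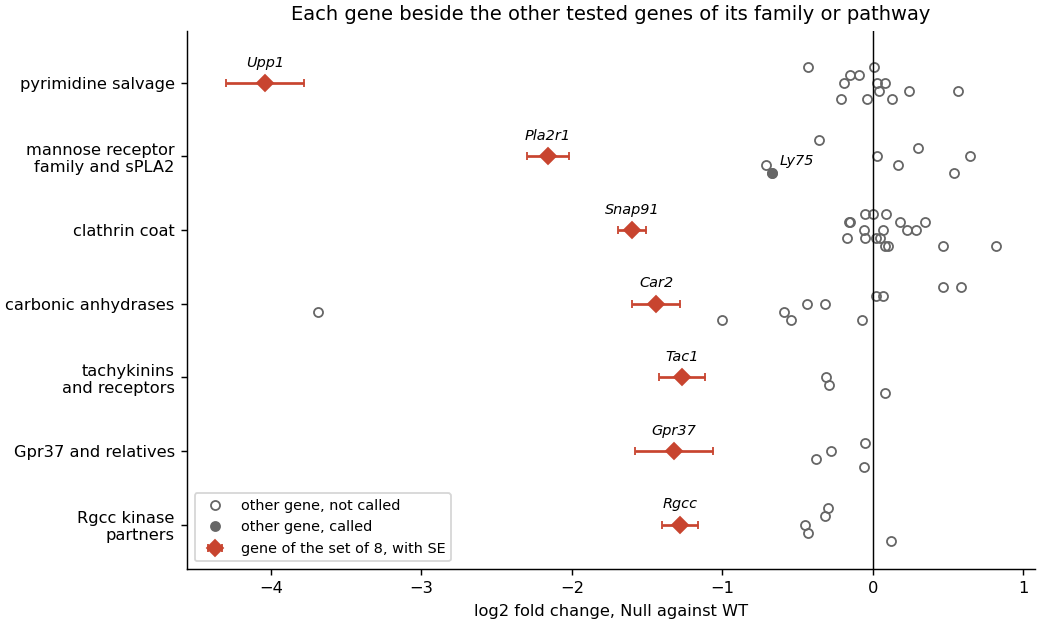
Log2 fold change of Null against WT for each of 7 genes (red diamonds, with SE) and for the other tested genes of its family or pathway (circles, filled where called by edgeR, spread vertically for legibility). The 7 diamonds lie between -4.04 and -1.27, while the only filled circle is Ly75 at -0.67 and the leftmost open circle is Car3 at -3.69, which did not pass.

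Of the 8 genes, 4 are on lists of domain genes that the study took from single cells of other, WT ducts. 1500015O10Rik, Snap91 and Rgcc are on the list of Kölliker's organ, and of the 16 other genes of that list (Prdm16 left out) 9 were called lower and 2 higher in Null, where 0.786% of all genes tested were called lower and 0.92% higher, with a median log2 fold change of -0.68. The 9 were Efhd1 (-1.97), Clic6 (-1.76), Spock1 (-1.15), Mia (-1.03), the tectorial membrane gene Tecta (-0.93), the sulfotransferase gene Chst15 (-0.90), the cadherin gene Cdh4 (-0.85), the transcription factor gene Ebf1 (-0.78) and the growth factor gene Fgf10 (-0.58), with edgeR adjusted p from 0.00145 to 0.0313. The 2 that rose were Nrxn3 (0.93, adjusted p = 0.00847) and Tectb (0.94, adjusted p = 0.0326). The count of 9 went to 5 without WT 1 or without WT 2, to 6 with both and Null 3 left out, and to between 6 and 9 without any other embryo, and that of 2 to 0 without WT 1 or WT 2. The summed level of these 16 genes was 5660 to 6710 CPM in WT, 6050 to 6880 CPM in Het and 4140 to 4840 CPM in Null. Their Het sum overlapped WT, as did Snap91 and 1500015O10Rik, whereas Rgcc did not. Tecta was the largest part of the sum, with means of 2880 CPM in WT, 2810 CPM in Het and 1520 CPM in Null. Within the list, Efhd1 was lower in Het than in WT (61.9 against 88.5 CPM) and Tectb higher (1170 against 758 CPM).

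Tac1 is on the list of the outer sulcus, on the far side of the duct. Of the 19 other genes of that list none was called lower, although Pcdh17, a protocadherin gene named here after its values were seen, was at 67.3 CPM in WT, 42.8 CPM in Het and 27.1 CPM in Null (log2 fold change -1.32, edgeR adjusted p = 0.0925), and the kinase gene Sgk1 rose (1.39, SE 0.218, edgeR adjusted p = 0.0231). Its summed level was 5060 to 5470 CPM in WT and 5040 to 6070 CPM in Null, while Tac1 was at 41.5% of WT. The prosensory list had 4 of 20 genes higher, namely Fgf20 (1.35), Cdkn1b (0.52), S100a1 (1.37) and Tectb, which both lists hold, and the roof list 1 of 20, Fibin (0.79), with no gene lower in either. The 5 higher genes that the outer sulcus, prosensory and roof lists add to Tectb went to 0 without WT 2, 1 without WT 1 or Null 1, 3 without WT 3 or Null 2, 10 without Null 3, and 4 with WT 1, WT 2 and Null 3 left out. Upp1, Pla2r1, Car2 and Gpr37 are on none of the 4 lists, which hold only the 20 leading genes of each domain and so do not show where these 4 genes are expressed.

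The genes whose pattern over the 9 libraries was most like that of the 8 were found by Pearson correlation of log2 CPM with the mean of their standardised values. They were Myo5b, an unconventional myosin of recycling endosomes (r = 0.994), Sh3bgrl2 (0.992), Calb1, the calcium buffer calbindin (0.991), Ptk2b, a cytoplasmic tyrosine kinase (0.989), and Efhd1, a mitochondrial calcium-binding protein gene (0.988), and Prdm16 stood at 0.993. Calb1 went from 16.5 ± 6.65 CPM in WT through 8.71 ± 3.01 CPM in Het to 0.746 ± 0.119 CPM in Null, an order much like that of Upp1. Myo5b had a shallower range, at 138 ± 7.38, 118 ± 6.54 and 73.9 ± 1.88 CPM (SD, n = 3 each). Since the 8 genes were chosen for being lower in Null than in WT, a high correlation with their mean is expected of any gene of that kind, and the likeness is a description over these 9 libraries.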

How the data were processed

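RNA from cochlear ducts of 9 embryos (3 per genotype) was sequenced as single reads from TruSeq mRNA libraries. Per the labels' processing notes, the authors trimmed reads with cutadapt 1.13, aligned them to mm10 with STAR, counted them with HTSeq 0.6.1p1 and compared genotypes with DESeq2. The deposited values are raw counts per Ensembl gene, not normalized. The annotation release and strand setting are not given in the sources used here.

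Counts were tested with edgeR 4.0.16 in R 4.3.3 (TMM factors, filterByExpr with a minimum count of 10, quasi-likelihood test, Benjamini-Hochberg adjustment over all genes) with 6 libraries per comparison. Calls needed an adjusted p under 0.05 and a log2 fold change beyond 0.5 in size. The difference of Het from the mean of WT and Null used all 9 libraries and the adjusted p alone. Standard errors are the log2 fold change over the square root of F. Levels are CPM with TMM factors, and correlations used log2 CPM with a prior count of 2. On simulated counts for the Null and WT comparison (17168 genes, 200 changed), 76 of 100 genes changed by a log2 value of 1 and 100 of 100 changed by 2 were recovered, with 4 false calls. For the midpoint contrast (17797 genes) the figures were 88 and 100, with 14 false calls. The changed genes were drawn from those with a mean over 200 counts. All genes had the same dispersion, and libraries did not differ in other tissue. The figures thus do not cover Gpr37, at 53 to 83 counts in Null and 154 to 194 in WT, or the unequal tissue of the real libraries.

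Names and mm10 positions came from GENCODE M21, which holds 54165 of the 54232 genes, and promoters from RefSeq (GRCm38.p6). Counts of libraries of one genotype always differed beyond sampling noise (lowest chi-square per gene, 5.72). The genes and lists were chosen with earlier results of these data known. Named genes are the 8, Prdm16, the 5 genes of most similar pattern, every relative or domain gene called, and the most abundant relative where none was called. Other named relatives were picked for their role after their values were seen. Alternatives were DESeq2 1.42.0, RLE factors, no filter on low counts, a replicate block, all 9 libraries in one fit and leaving out each embryo. A fit without WT 1, WT 2 and Null 3, and the place of the Het level without them, were added after the mesenchyme sums were seen. That fit held WT 3, all Het embryos, Null 1 and Null 2 in every comparison.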

Additional observations from a re-analysis of the deposited data

How the results depend on the processing

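Over all alternatives run, the 8 genes kept a negative log2 fold change in Null against WT, Het against WT and Null against Het, while which of them passed the test depended on the setting. Het against WT, where 1 of the 8 was called, gave 2 under DESeq2 (Pla2r1 and Car2), 4 with no filter on low counts (Pla2r1, Upp1, Car2 and Gpr37), 0 with all 9 libraries in one fit, 0 without WT 1, WT 2 and Null 3, and 0 to 3 without 1 embryo. Null against Het gave 3 to 7 without 1 embryo and 6 or 7 under the other settings. The midpoint contrast, where 1 of the 8 was called, gave 4 under DESeq2 and 4 with no filter (Snap91, 1500015O10Rik, Upp1 and Tac1 in both), 0 without WT 1, WT 2 and Null 3, and 0 to 2 without 1 embryo, and its value for Gpr37, -0.00, changed sign to 0.11 without those 3 libraries, and to 0.02 without WT 3, 0.13 without Het 2 and 0.15 without Null 3 in a range from -0.09 to 0.15 without 1 embryo. The relatives gave 3 calls under DESeq2, 3 with no filter, 2 with all 9 libraries in one fit, 0 without the 3 libraries and 0 to 3 without 1 embryo. The list of Kölliker's organ gave 5 to 9 lower and 0 to 2 higher calls without 1 embryo. The other 3 domain lists, with 0 lower and 5 higher, gave 2 lower and 14 higher under DESeq2, 2 and 13 with no filter, 2 and 12 with all 9 libraries in one fit, 1 lower without the 3 libraries, and 0 to 2 lower and 0 to 10 higher without 1 embryo. Without the filter edgeR called 575 genes lower in Het against WT, against 17 with it. The median correlation of 0.381 ran from 0.192 (without Het 2) to 0.473 (without Null 3) when 1 embryo was left out. The cause of these differences was not tested. With a replicate block, Het against WT gave 2 calls (Pla2r1 and Car2), the midpoint contrast 0 (Gpr37 at 0.00), the relatives 0, Kölliker's organ 1 higher, the other domain lists 2 higher, Null against Het gave 6, and the median correlation was 0.192. Same-numbered libraries of different genotypes correlated between -0.284 and 0.202, with 3 of 9 pairs over 0.1. Pairs of different number ran from -0.327 to 0.349, with 6 of 18 over 0.1. Whether the numbers mark a shared litter or batch cannot be told from these values. Gpr37 had the fewest counts of the 8 genes in WT and Het, and Upp1 in Null, and the part of depth in their calls was not tested.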
